A study of Mus musculus with 96 samples.

Results

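The mir-26 family of the mouse comprises 3 microRNA hairpins, mir-26a-1 (MI0000573), mir-26a-2 (MI0000706) and mir-26b (MI0000575), and was taken by accession from the 1187 hairpins of a liver microRNA table. Its levels are described in 96 mice, as CPM, in which a library's column sum is scaled to 1e+06 counts, unless another scale is named. All mice were C57BL/6. The knock-in classes Q20, Q50, Q92 and Q140 were heterozygous, carrying 1 normal Htt allele and 1 with exon 1 of human HTT, whose CAG run of 20, 50, 92 or 140 names the class. Htt encodes huntingtin, the protein altered in Huntington's disease by a long CAG run. Unaltered littermates (WT) were taken from the Q20 and the Q50 lines and, per the labels, shared cages with knock-in mice of their line, whereas for Q92 and Q140 the labels name only cage mates of the same genotype. The study's methods describe cages of knock-in and WT mice together and name no exception, so the housing of Q92 and Q140 is uncertain. The Q92 and Q140 lines have no WT mice here. Each of these 6 classes was sampled at 6 and 10 months of age with 4 males and 4 females, which gives 24 groups of 4. The 24 WT and Q20 mice of each age formed the controls. The replicates were separate mice, so p-values measure the spread between mice. Per the study's methods a cage held mice of the same sex, and the tests took no account of cage.

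MicroRNAs are cut from hairpin transcripts, and the mature strand guides Argonaute proteins to messenger RNAs that pair with its seed, the bases near its 5′ end. The members of the mir-26 family share their seed and lie within genes of small C-terminal domain phosphatases, enzymes that act on RNA polymerase II. In liver, miR-26a is known as an abundant microRNA whose level is low in many hepatocellular carcinomas, and the methyltransferase gene Ezh2 is a well-known target.

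The mature sequences show why the mir-26a loci cannot be read apart from their main product. They are taken from RefSeq (GRCm38.p6) and written 5′ to 3′, with the seed, bases 2 to 8, in capitals:
miR-26a-5p, from mir-26a-1 and from mir-26a-2: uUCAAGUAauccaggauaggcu
miR-26b-5p: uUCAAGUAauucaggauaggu
miR-26a-1-3p: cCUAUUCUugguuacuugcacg
miR-26a-2-3p: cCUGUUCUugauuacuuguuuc
miR-26b-3p: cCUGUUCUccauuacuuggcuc
The 5p product of both mir-26a loci was the same over its 22 nucleotides (nt). miR-26b-5p, of 21 nt, differed from it at C11U and C21U, counted from 1 at the 5′ end with the base of miR-26a first. Among 1738 mature entries of the RefSeq table, the seed UCAAGUA occurred in 3, which were those of miR-26a-5p (once per locus) and miR-26b-5p. The 3p products, cut from the other side of the hairpin, told the mir-26a loci apart at 6 of 22 positions, from A4G to G22C.

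The hairpins themselves, with the mature strands in capitals, show how far the identity of the mir-26a loci reaches:
mir-26a-1: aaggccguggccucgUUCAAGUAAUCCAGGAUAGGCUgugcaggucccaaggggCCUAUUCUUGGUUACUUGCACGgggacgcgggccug
mir-26a-2: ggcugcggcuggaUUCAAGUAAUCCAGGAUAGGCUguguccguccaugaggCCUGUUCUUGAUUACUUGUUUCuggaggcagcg
mir-26b: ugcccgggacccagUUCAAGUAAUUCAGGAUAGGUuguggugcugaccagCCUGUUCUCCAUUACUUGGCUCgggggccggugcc
The longest identical run was 25 nt between the mir-26a hairpins, 10 nt between mir-26a-2 and mir-26b, and 11 nt between mir-26a-1 and mir-26b. Lengths recovered from the deposited tables were 90, 84 and 85 nt and matched these sequences.

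On GRCm38, the mm10 assembly of the files, all of them lie on the plus strand. mir-26a-1 is at chr9:119031796-119031885, within an intron of Ctdspl in each of the 3 transcripts that span it. mir-26a-2 is at chr10:126995530-126995613 in Ctdsp2, inside an intron of 1 and over an exon of 2 of its 3 spanning transcripts. mir-26b is at chr1:74394310-74394394, within an intron of Ctdsp1 in both spanning transcripts.

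The libraries held 2195052 to 6662671 estimated counts, with a median of 5149567. Males had the lower totals, with medians of 4259133 against 5149567 in females at 6 months and 5186571 against 5837609 at 10 months. The smallest member count was 2268 for mir-26a-1, 81629 for mir-26a-2 and 20942 for mir-26b, so counting error was at most 2.10%, 0.350% and 0.691%. For the mir-26a rows this leaves out the error from dividing shared counts between the loci, described below. For the tests, 4 libraries of 10 months that stood apart over all hairpins were left out. They were replicate 1 of the Q92 females, replicate 2 of the Q92 males, and replicate 3 of the WT males in both the Q50 and the Q20 line. These 4 are included in the levels. No name is paired with the other accessions in the sources used here, so the liver label was not checked against marker microRNAs, and other hairpins are given by accession.

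The family took 5.32% ± 0.530 of all counts (SD, n = 96), from 3.78% to 6.54%. mir-26a-2 had 43082 ± 4800 CPM, with 29113 the lowest, 43686 the median and 54922 the highest library. mir-26b followed with 8616 ± 949 CPM (5605, 8728 and 10423), and mir-26a-1 with 1512 ± 512 CPM (933, 1428 and 3935). The order mir-26a-2, mir-26b, mir-26a-1 held in 96 of 96 libraries. By abundance in a library, mir-26a-2 had a median rank of 6 among all hairpins, mir-26b of 19 and mir-26a-1 of 46.5. The coefficient of variation within groups was 9.49% for mir-26a-2, 9.46% for mir-26b and 33.4% for mir-26a-1.

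The mir-26a counts were shared between the loci. Of the mir-26b values 96 of 96 were whole numbers (tolerance 0.0001), against 0 for mir-26a-1 and 1 for mir-26a-2, and the sum of the mir-26a rows lay within 0.02 of a whole number in 96 of 96 libraries. Such fractional values were held by 248 hairpins of the table, and no source used here gives their origin. mir-26a-2 had 8.34 to 44.5 times the counts of mir-26a-1, with a median of 31.2. mir-26a-1 thus received 2.20% to 10.7% of the mir-26a counts, with a median of 3.11%. Since the 5p product is the same, the level of each locus is uncertain and the sum of both rows (called mir-26a below) is the firmer measure. It had 44594 ± 4723 CPM (SD, n = 96).

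The split stood apart in 1 lane tag of 6 months. The lane tag is the part of the library code in the labels that runs from L5 to L8, and it was taken for the batch. At 6 months the mean share was close in L6 and L7, at 2.85% ± 0.452 (SD, n = 18) and 2.87% ± 0.645 (n = 27). By contrast the 3 libraries of L8 gave mir-26a-1 a share of 9.48% (Q50 male replicate 1), 10.3% (Q50 female replicate 1) and 10.7% (Q92 male replicate 2). The other 45 libraries of that age lay between 2.20% and 5.43%, with no overlap. Their mir-26a-1, at 3050, 3935 and 3528 CPM, lay above the 933 to 2962 CPM of the other 45. Their mir-26a-2, at 29113, 34348 and 29418 CPM, lay below the 37887 to 54922 CPM of the other 45. Their mir-26b was low as well, at 5605, 6221 and 6379 CPM, where the others had 7091 to 10241. At 10 months the mean share was 4.14% ± 0.458 in L5 (SD, n = 13), 3.43% ± 0.877 in L6 (n = 26) and 3.13% ± 0.519 in L7 (n = 8), and the single L8 library had 3.95%. That L8 library, replicate 3 of the WT males of the Q50 line, was left out of the tests. It had the lowest mir-26a-2 (31346 CPM) and mir-26b (6782 CPM) of its age. No test of lane tag on the share was run. The highest share of that age, 6.37%, was that of Q92 female replicate 1, 1 of the 4 libraries left out of the tests.

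**Figure D1:**
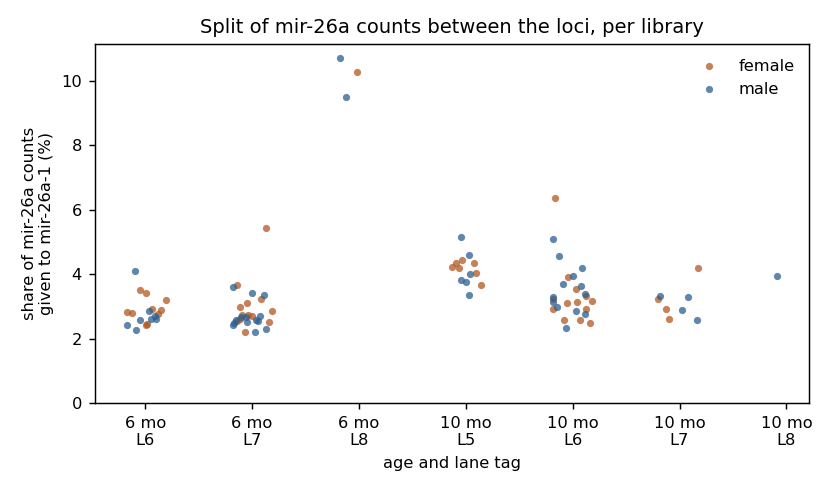
Share of mir-26a counts given to mir-26a-1 (vertical axis, percent) in each of the 96 libraries, by age and lane tag (horizontal axis), orange for females and blue for males. The 3 libraries of L8 at 6 months lie between 9.48% and 10.7%, above all other libraries, whose highest share was 6.37%.

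Sex was the first comparison, since each class held 4 males and 4 females at each age. mir-26a was lower in males at both ages. At 6 months it ran in females from 38283 to 56451 CPM with a median of 49727, and in males from 32163 to 50462 with a median of 44681. In females of 10 months it ran from 39587 to 52428 with a median of 45102, and in males of that age from 32634 to 47699 with a median of 40699. The sexes overlapped at both ages. Even so, the female mean lay above 22 of 24 males at the younger age and above 20 of 24 at the older. In whole liver, fewer cells of a type and less RNA per cell cannot be told apart.

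In the edgeR fit, scaled by TMM with lane tag and genotype as covariates, the log2 difference of mir-26a (male minus female) was -0.12 ± 0.03 (SE) at 6 months, with an adjusted p of 6.6e-04. The difference at 10 months was -0.08 ± 0.02, with an edgeR adjusted p of 0.00847. These are males at 0.918 and 0.947 times the female level. Of the 3 single rows 2 were lower in males at 6 months, where 15.8% of the 374 hairpins tested were called lower and 38.2% in either direction. These were mir-26a-1 (-0.23 ± 0.08, edgeR adjusted p = 0.0127) and mir-26a-2 (-0.11 ± 0.03, 0.00225), while mir-26b had -0.06 ± 0.03 (0.140). At 10 months 2 of 3 were again lower, against 23.2% of 383 hairpins called lower and 45.2% in either direction. These were mir-26a-2 (-0.09 ± 0.02, edgeR adjusted p = 0.00229) and mir-26b (-0.10 ± 0.03, 0.00221), and mir-26a-1 had 0.03 ± 0.07 (0.785), which turned to -0.08 ± 0.09 with the 4 libraries kept (0.486).

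mir-26b, the member with its own 5p sequence, ran in females from 6221 to 10241 CPM at 6 months, with a median of 8673, and in males from 5605 to 9868, with a median of 7936. At 10 months it ran in females from 7979 to 10423 (median 9407) and in males from 6782 to 10155 (median 8757). The sexes overlapped, with 17 of 24 males of 6 months and 20 of 24 of 10 months under the female mean. Whether mir-26b was called at 6 months depended on the libraries and on the scaling. Without the 3 libraries of L8 it was -0.10 ± 0.04 (edgeR adjusted p = 0.0260), a choice made after seeing the data, and on column sums without TMM it was -0.09 ± 0.03 (0.0137). It was also called in 16 of the 48 fits that left out 1 library, at -0.12 to -0.08, without libraries of 6 months from every class. For mir-26a-1 at 6 months the call was lost without the lane tag (-0.14 ± 0.14, edgeR adjusted p = 0.452).

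Both single-row calls of 10 months ended with DESeq2 size factors in the edgeR fit, at -0.05 ± 0.03 for mir-26a-2 (adjusted p = 0.0820) and -0.06 ± 0.03 for mir-26b (0.0594). This scaling moved the median of all hairpins in that comparison by 0.037 (log2). No fit of mir-26a as a sum on this scale is given here, so whether its call of 10 months holds there is not shown. Within lane tags, the difference of mir-26a-2 was -0.14 ± 0.06 in L6 (18 libraries) and -0.15 ± 0.04 in L7 (27) at 6 months (edgeR adjusted p = 0.234 and 0.0111). At 10 months it was -0.04 ± 0.08 in L5 (12), -0.15 ± 0.05 in L6 (24) and 0.0027 ± 0.088 in L7 (8), for which the edgeR adjusted p was 0.882, 0.0206 and 0.998. At 10 months the difference passed the threshold within L6 and missed it within L5 and L7, and whether lane tags differed was not tested. mir-26b had -0.10 ± 0.08 in L6 and -0.12 ± 0.05 in L7 at 6 months, and -0.14 ± 0.10, -0.14 ± 0.04 and 0.02 ± 0.13 in L5, L6 and L7 at 10 months, with edgeR adjusted p under the threshold in L6 of 10 months (0.0130). That of mir-26a-1 was -0.13 ± 0.14 and -0.28 ± 0.12 at 6 months, and -0.08 ± 0.14, 0.13 ± 0.11 and -0.10 ± 0.23 at 10 months, with none called by edgeR in a lane tag (unadjusted p of 0.0350 in L7 of 6 months). Whether the sex difference itself differed between the ages was tested as an interaction. edgeR called 0 of 3 members (0 at an unadjusted p under 0.05, 0 by DESeq2) and 0% of 408 hairpins, of which 53 had an unadjusted p under 0.05. The values were 0.13 ± 0.17 for mir-26a-1, 0.04 ± 0.05 for mir-26a-2 and -0.02 ± 0.05 for mir-26b (unadjusted p of 0.454, 0.415 and 0.694).

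**Figure D2:**
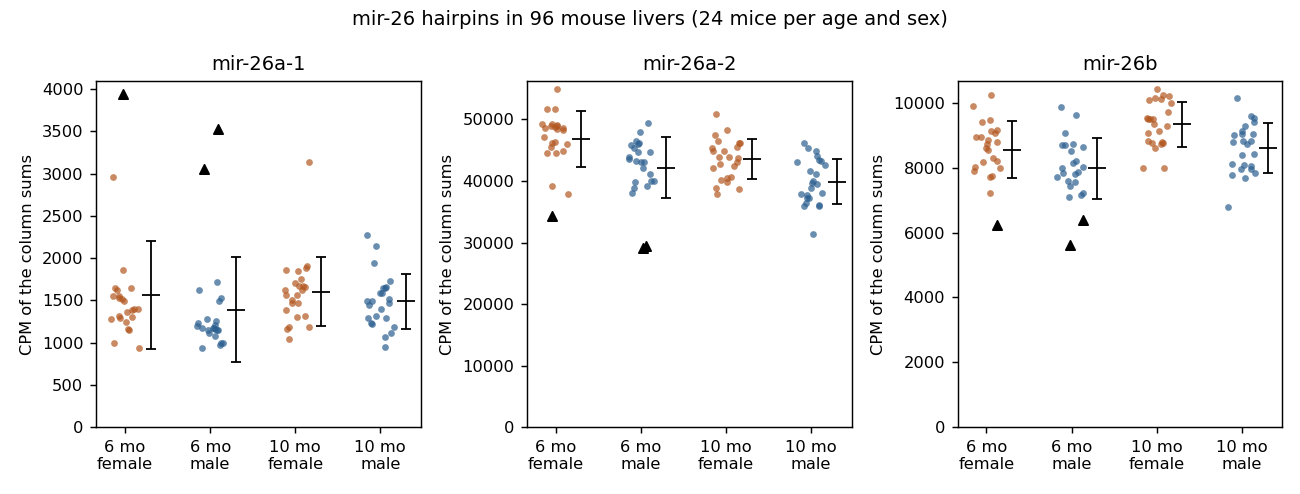
CPM of the column sums (vertical axes, each from 0) of mir-26a-1, mir-26a-2 and mir-26b in the livers of 24 females and 24 males at 6 and 10 months, 1 point per mouse, with mean and SD beside each group. Black triangles mark the 3 libraries of L8 at 6 months, which at that age have the highest mir-26a-1 (3050 to 3935 CPM) and the lowest mir-26a-2 and mir-26b.

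Age was the second comparison, 10 against 6 months. In the edgeR fit, which held no lane tag, mir-26a-2 was called lower at 10 months, and the other rows were not called. On column sums, the mean of mir-26a-2 went from 46781 ± 4492 CPM (SD, n = 24) at 6 months to 43520 ± 3272 at 10 months in females, and from 42121 ± 4954 to 39906 ± 3710 in males. The ages overlapped, and 21 of 24 females and 16 of 24 males of 10 months lay under the 6-month mean of their sex. By lane tag, mir-26a-2 at 6 months had 43438 ± 3568 CPM in L6 (SD, n = 18) and 46625 ± 3739 in L7 (n = 27). At 10 months it had 39008 ± 2186 in L5 (n = 13), 43942 ± 3214 in L6 (n = 26) and 40160 ± 2750 in L7 (n = 8). On this scale the mean of L6 was not lower at 10 months, while that of L7 was. Age and sequencing set cannot be told apart. In the edgeR fit the log2 difference of mir-26a-2 was -0.20 ± 0.03 (SE, adjusted p = 5.9e-11), a level 0.869 times that of 6 months. For mir-26a as a sum it was -0.19 ± 0.02 (edgeR adjusted p = 4.0e-12). The count of 1 lower member of 3 stands against 27% of 408 hairpins called lower, and 58.6% called in either direction. mir-26a-1 had -0.06 ± 0.08 (edgeR adjusted p = 0.547), with an interval from -0.23 to 0.10. Its direction turned on column sums (0.07 ± 0.08), on column sums without the 2 most abundant hairpins and the family (0.09 ± 0.08) and without the 3 libraries of L8 (0.09 ± 0.06), and it was called in none of these. mir-26b had -0.0019 ± 0.025 (0.962), with an interval from -0.05 to 0.05.

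For mir-26b the direction with age rested on the scaling. On column sums it had 8551 ± 874 CPM in females and 7975 ± 951 in males at 6 months (SD, n = 24 each), against 9339 ± 694 and 8598 ± 767 at 10 months. That put 22 of 24 females and 18 of 24 males of 10 months above the 6-month mean of their sex. Fitted without TMM, the log2 difference was 0.12 ± 0.03 (SE, edgeR adjusted p = 3.21e-04). This scaling moved the median of all hairpins by 0.12 (log2), and the difference of mir-26b moved by as much. mir-26a-2 was lower under both, by -0.08 ± 0.03 without TMM (edgeR adjusted p = 0.0141). On column sums without the 2 most abundant hairpins and without the family, its difference was -0.05 ± 0.03 and missed the threshold (0.0952), with the median of all hairpins moved by 0.15.

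The ratio of mir-26b to mir-26a is free of scaling, since both come from the same library. It was higher at 10 months in both sexes. In females it ran from 0.153 to 0.206 at 6 months (median 0.177, n = 24) and from 0.167 to 0.230 at 10 months (median 0.211, n = 23 after the libraries left out). In males it ran from 0.168 to 0.221 (median 0.179, n = 24) and from 0.177 to 0.229 (median 0.207, n = 21). The ranges overlapped, and 22 of 23 females and 19 of 21 males of 10 months were above the 6-month mean. The log2 difference was 0.23 ± 0.03 (SE) in females, 1.17-fold, and 0.16 ± 0.03 in males, 1.12-fold. Two-sided permutation tests with 100000 resamples gave p = 2e-05 for each, the smallest they can give, and 4e-05 adjusted over the 4 tests of the ratio.

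Between the sexes the ratio differed by 0.05 ± 0.03 (log2, male minus female) at 6 months, with a permutation p of 0.0747 (0.0996 adjusted), and by -0.02 ± 0.03 at 10 months, with a permutation p of 0.609. By lane tag, the mean ratio was 0.178 ± 0.0140 in L6 (SD, n = 18), 0.182 ± 0.0116 in L7 (n = 27) and 0.177 ± 0.0157 in L8 (n = 3) at 6 months. At 10 months it was 0.209 ± 0.0113 in L5 (n = 12), 0.205 ± 0.0176 in L6 (n = 24) and 0.207 ± 0.0110 in L7 (n = 8). Every lane tag of 10 months had a higher mean than every lane tag of 6 months. Whether a tag such as L6 marks 1 run across the ages is not given, so age and sequencing set cannot be told apart.

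**Figure D3:**
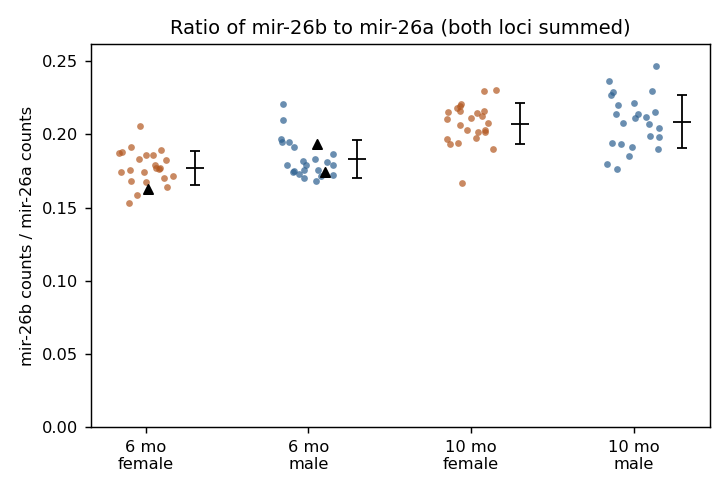
Counts of mir-26b divided by the summed counts of both mir-26a rows (vertical axis, from 0) in 96 livers by age and sex, 24 mice per group, 1 point per mouse with mean and SD beside it. Black triangles are the 3 libraries of L8 at 6 months, which lie among the others, and the 10-month groups sit higher than the 6-month groups with overlap.

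The order of the 24 groups is given as a description. mir-26a-2 was highest in females of WT of the Q20 line at 6 months, at 50272 ± 1564 CPM (SD, n = 4), and lowest in Q20 males at 10 months, at 36101 ± 272. The highest mean was 1.39 times the lowest. The 6 highest groups were all of females and the 6 lowest all of males. Among the lowest, the Q50 and Q92 males at 6 months each hold an L8 library, at 29113 and 29418 CPM. The others there had 39211 to 46095 and 37972 to 44734 CPM. Males of WT of the Q50 line at 10 months also hold one, at 31346 CPM, where the others had 39707 to 43148. The places of these groups, and with them the all-male lower end, thus rest in part on L8 libraries. Of the 23 neighbouring pairs in this order, 1 had a gap larger than the larger SD of the pair. It was the first step, down to Q20 females at 6 months at 47747 ± 2204 CPM, and the remaining neighbours did not differ beyond their spread.

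mir-26b was highest in Q20 females at 10 months (9816 ± 684 CPM) and lowest in Q50 males at 6 months (7534 ± 1338), 1.30 times apart. Its 6 highest groups were all of females, and 10 of its 12 highest were of 10 months. None of its 23 neighbouring pairs differed beyond the larger SD. mir-26a-1 was highest in Q50 females at 6 months (2052 ± 1265 CPM) and lowest in Q140 males at 6 months (1108 ± 81.4), again with 0 of 23 neighbours apart. The top group of mir-26a-1 and the lowest group of mir-26b each hold an L8 library. In the Q50 males at 6 months that library had 5605 CPM of mir-26b, and the others had 7839 to 8690. The next group up for mir-26b, Q50 females at 6 months, had 7686 ± 1333 CPM and also holds an L8 library. The last place of the Q50 males in mir-26b thus rests on their L8 library.

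**Figure D4:**
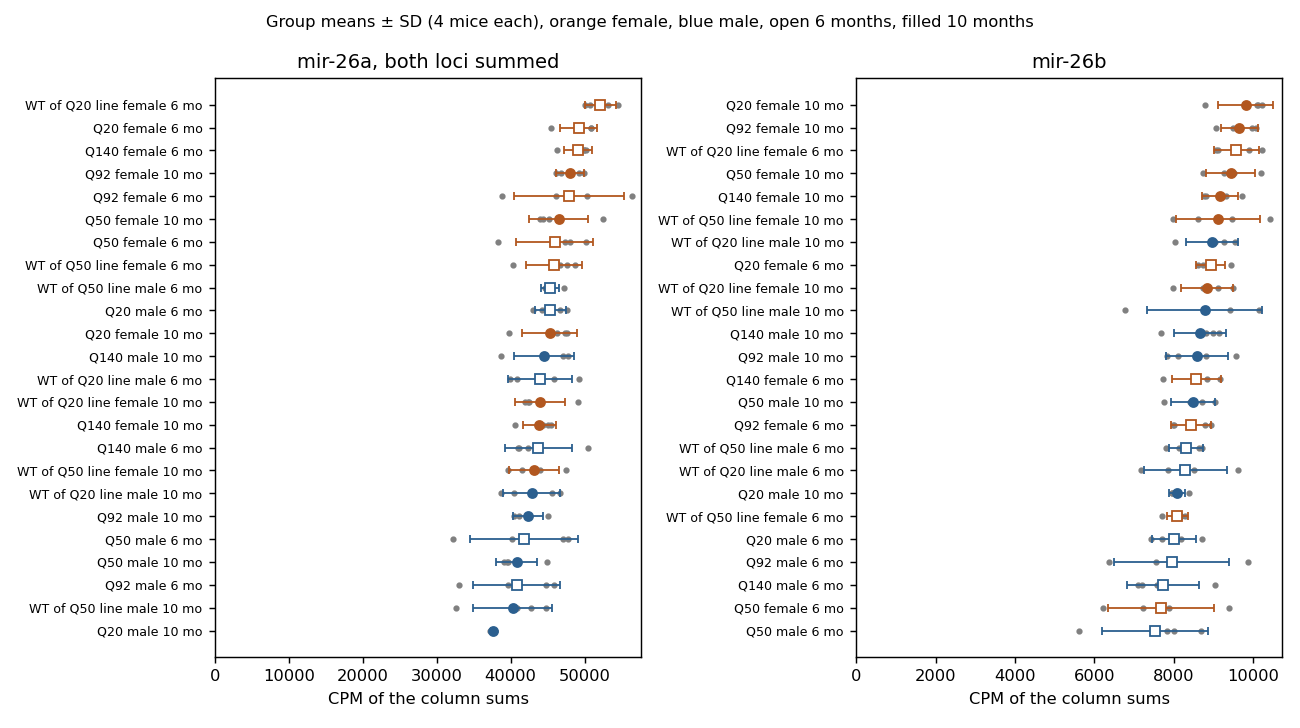
Mean and SD of mir-26a (both loci summed, left) and mir-26b (right) in the 24 groups of 4 mice, in CPM of the column sums (horizontal axes, from 0), sorted by mean, with each mouse as a grey point. Orange marks females, blue males, open squares 6 months and filled circles 10 months, and female groups lie towards the top in both panels.

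The comparisons of genotype asked whether the family changes in liver with the length of the CAG repeat. No member was called in any of 19 comparisons. These were Q50, Q92 and Q140 against controls and CAG length as a number, each at 6 months, at 10 months and over both ages, the change of the CAG slope between the ages, and, at each age, Q20 and Q50 against their own WT and the WT lines against each other. Among these 57 member values edgeR called 0, although 1 had an unadjusted p under 0.05, and the DESeq2 Wald test called 0. Over all hairpins, edgeR called 0.267% in Q92 at 6 months and 0% in Q50, in Q140 and with CAG length. Of the hairpins of 10 months it called 0% in Q50, 1.04% in Q92 (0.783% higher, 0.261% lower), 1.31% in Q140 and 2.09% with CAG length (1.83% higher, 0.261% lower). Over both ages the figures were 0%, 0.273%, 0% and 0.546%. In the own-line comparisons, between WT lines and for the change of the slope with age it was 0%.

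In Q140 livers of 10 months, mir-26a ran from 38740 to 47699 CPM with a median of 44891 (n = 8). In WT of the Q20 line it ran from 38639 to 49062 with a median of 42421, in WT of the Q50 line from 32634 to 47545 with a median of 42143, and in Q20 from 37217 to 47614 with a median of 38823 (n = 8 each). Q140 lay within the range of the controls. The edgeR difference from controls was 0.03 ± 0.03 (SE, interval from -0.04 to 0.10) for mir-26a and -0.04 ± 0.04 (from -0.11 to 0.04) for mir-26b. At 6 months the same differences were 0.02 ± 0.04 and -0.04 ± 0.05.

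Q92 differed from controls at 10 months by 0.05 ± 0.04 for mir-26a-2 and by -0.06 ± 0.04 for mir-26b (log2, SE, edgeR adjusted p = 0.604 and 0.572). Q50 differed by 0.01 ± 0.04 and -0.02 ± 0.04 at 10 months. At 6 months the Q50 and Q92 groups held the 3 libraries of L8. Q50 then had 7610 ± 1239 CPM of mir-26b (SD, n = 8), from 5605 to 9400, the lowest mean of the 6 classes, and WT of the Q20 line the highest, at 8940 ± 1041. With the lane tag in the fit, the difference of Q50 from controls in mir-26b was -0.07 ± 0.05 (SE, edgeR adjusted p = 0.998), and without those 3 libraries it was -0.06 ± 0.05. Without the lane tag the difference of Q50 in mir-26a-1 was 0.56 ± 0.18 in place of 0.02 ± 0.11, at an edgeR adjusted p of 0.992.

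Per 100 CAG repeats, with WT set at 7, the slope at 10 months was 0.0033 ± 0.069 for mir-26a-1, 0.02 ± 0.03 for mir-26a-2 and -0.04 ± 0.03 for mir-26b (log2, SE). At 6 months it was -0.0092 ± 0.076, 0.0029 ± 0.028 and -0.02 ± 0.03. Combined over both ages, Z was -0.05, 0.71 and -1.20 (edgeR adjusted p = 0.986, 0.919 and 0.787). Q92 and Q140 come from lines without WT mice here, so repeat length and line cannot be told apart. Within lane tags the slope of mir-26b at 10 months was 0.0067 ± 0.040 in L5, -0.10 ± 0.04 in L6 and 0.03 ± 0.08 in L7, and none was called by edgeR, at adjusted p of 0.993, 0.399 and 0.844.

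Among the controls, Q20 and WT of its line differed in mir-26a-2 by -0.01 ± 0.05 at 6 months and -0.08 ± 0.04 at 10 months (log2, SE). The edgeR adjusted p was 0.956 and 0.556. The 1 value with an unadjusted p under 0.05 was mir-26b between the WT lines at 10 months, where WT of the Q50 line was higher by 0.10 ± 0.05, with an edgeR adjusted p of 0.419. At 6 months that difference was -0.06 ± 0.06. The 95% intervals of all differences between genotypes within an age lay between -0.17 and 0.12 for mir-26a-2, between -0.20 and 0.20 for mir-26b and between -0.41 and 0.31 for mir-26a-1 on the log2 scale.

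**Figure D5:**
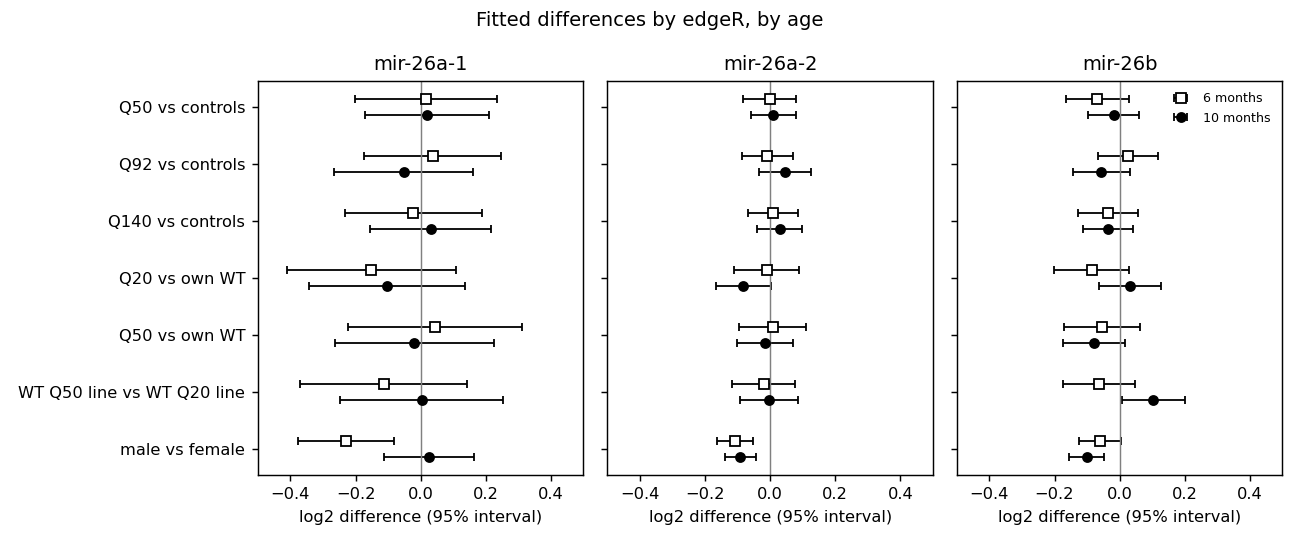
Log2 differences fitted by edgeR (horizontal axis) with 95% intervals for mir-26a-1, mir-26a-2 and mir-26b, in the genotype comparisons and between the sexes, at 6 months (open squares) and 10 months (filled circles). No genotype difference was called, while mir-26a-2 was called lower in males at both ages.

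The ratio of mir-26b to mir-26a by genotype is given as a description. At 6 months its mean ran from 0.174 ± 0.0140 in Q50 to 0.187 ± 0.0201 in Q92 (SD, n = 8 each). At 10 months it ran from 0.197 ± 0.0101 in Q92 (n = 6) to 0.216 ± 0.0038 in Q20 (n = 8). At 6 months WT of the Q20 line lay next to Q92, at 0.186 ± 0.0121. The place of Q92 at 10 months rests on the 2 libraries left out, since over all 8 mice it had 0.2023 ± 0.0164 and Q140 had 0.2020 ± 0.0144.

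Across livers of the same age and sex, mir-26a and mir-26b rose and fell together on column sums, where both share the library total. In females of 6 months Pearson's r of the log2 CPM was 0.787 and Spearman's rho 0.837 (n = 24, permutation p = 1e-05 for each, the smallest they can give). In males of that age r was 0.837 and rho 0.779 (n = 24, permutation p of 1e-05 and 2e-05). At 10 months r was 0.549 and rho 0.596 in females (n = 23, permutation p of 0.00641 and 0.00308), and 0.503 and 0.481 in males (n = 21, permutation p of 0.0211 and 0.0293). Adjusted over the 4 tests the permutation p of r was 2e-05, 2e-05, 0.00855 and 0.0211, and that of rho 4e-05, 4e-05, 0.00411 and 0.0293. Without the 2 libraries farthest from the median of mir-26a, r was 0.733, 0.655, 0.667 and 0.490.

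Within a lane tag r was lower in every set of at least 6 libraries. At 6 months r was 0.284 in L6 (n = 10) and 0.568 in L7 (n = 13) for females, and 0.782 in L6 (n = 8) and 0.472 in L7 (n = 14) for males. At 10 months it was 0.151 in L5 (n = 7) and -0.218 in L6 (n = 12) for females and 0.138 in L6 (n = 12) for males. At both ages these values were lower than the r over all lane tags of the same age and sex. Neither these values nor their difference from that pooled r were tested, and at these n a relation within lane tags cannot be judged. The other lane tags held under 6 libraries of a sex.

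The hairpins outside the family whose pattern over the 24 group means was most like that of mir-26a, among 126 hairpins with a mean of at least 100 CPM, were MI0000566 (Pearson's r of log2 CPM 0.811), MI0000223 (0.788), MI0000723 (0.742), MI0000724 (0.718) and MI0000236 (0.699). For mir-26b they were MI0000687 (0.831), MI0005003 (0.811), MI0000560 (0.811), MI0000558 (0.807) and MI0000590 (0.806). The lists share no hairpin, and mir-26a and mir-26b had r = 0.416 with each other over the same means. All of these hold the library totals, the sexes and the ages in common.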

How the data were processed

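Liver microRNA was measured in 96 mice. Per the study's methods, small RNA was sequenced as strand-specific single-end reads, which were clipped, aligned to mm10 with STAR at default settings and counted with HTSeq. The labels name CASAVA 1.8.2. No source used here names the release of the hairpin annotation. The authors deposited estimated counts per hairpin and FPKM values. The step that gave the estimates their fractions is not named in the methods. The FPKM served only to recover hairpin lengths. Whole counts had been foreseen for the count test, and the deposited estimates were therefore rounded first. Members and lists were chosen with earlier results of these data known. The lists of marker and related microRNAs could not be matched, because the reference tables pair no accession with a name outside the RefSeq entries used for the family.

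Groups came from the labels. After the study's methods, outlying libraries were found from variance-stabilized counts by their connectivity to the other libraries, standardized with median and median absolute deviation (Z.k). A value under -5 left out 0 libraries at 6 and 4 at 10 months. Tests covered hairpins reaching 1 CPM in 8 or more libraries and used edgeR 4.0.16 in R 4.3.3 (quasi-likelihood F test, TMM), with Benjamini-Hochberg adjustment over all hairpins and a threshold of 0.05. Covariates were sex, genotype and lane tag within an age. The study names a batch covariate without defining it, and the lane tag was used for it. The replacement of single outlying values that the study applied before its tests was not applied. Models over both ages had no lane tag. The Z of both ages were summed and divided by the square root of the number of ages. The ratio and the correlations used permutation tests with 100000 resamples (scipy 1.17.1). Named hairpins outside the family are the 5 with the highest correlation over group means. Alternatives were other scalings, no filter, DESeq2 1.42.0, summed mir-26a rows, all libraries, a Z.k limit of -3, no lane tag, a replicate block, other controls, fits within lane tags, leaving out each library, and, added after seeing the data, leaving out the 3 libraries of L8 at 6 months. The tests were also run on simulated data with known changes, and the outcome is not given here. Of 144 pairs within groups, 0 held identical values, and chi-square divided by its degrees of freedom was 34.4 or more.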

Additional observations from a re-analysis of the deposited data

Results flagged for a closer look

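In each group of 4 mice, the highest or lowest library was set against the other 3 by Dixon's criterion for CPM of the 3 members, for the share of mir-26a counts given to mir-26a-1, and for the ratio of mir-26b to mir-26a. Of 120 such tests, 13 stood apart, where chance flags about 1 in 20 groups, or 6. The measures share counts, so the tests are not independent and the same library can be flagged more than once.

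For mir-26a-1, Q50 female replicate 1 at 6 months had 3935 CPM (the other 3 had 1310 to 1643) and came from lane tag L8. WT of the Q20 line female replicate 1 at 6 months had 2962 CPM (1388.5 to 1521). WT of the Q50 line male replicate 4 at 6 months had 1496 CPM (1147 to 1172), and Q140 male replicate 4 at 10 months had 2145 CPM (1476 to 1520).

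The first 3 of these also stood apart in their mir-26a-1 share, at 10.3% (2.62% to 3.42%), 5.43% (2.74% to 2.99%) and 3.35% (2.48% to 2.58%). Q50 male replicate 1 at 6 months, also of L8, stood apart in the share alone, at 9.48% (2.43% to 3.59%).

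For mir-26a-2, the high libraries were Q140 male replicate 3 at 6 months with 49349 CPM (39909 to 41200), Q50 male replicate 3 at 10 months with 42599.6 CPM (37797 to 38109) and WT of the Q20 line female replicate 3 at 10 months with 47500.1 CPM (40166 to 40631). The low one was Q140 female replicate 2 at 6 months with 44602 CPM (48392 to 48804). For mir-26b, Q20 female replicate 2 at 10 months was low, with 8794 CPM (10102 to 10239). Why these libraries stood apart was not tested.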

How the results depend on the processing

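Apart from leaving out single libraries, 833 values under an alternative kept their side of the threshold, of which 706 also kept their direction and 127, called in neither fit, changed sign. Another 4 gained a call, 12 lost one, and 6 changed sign with a call in at least 1 of the fits. No genotype value was called in 4002 alternative values, and the lowest edgeR adjusted p was 0.173. For the sex difference (log2, male minus female) at 6 months, mir-26a-1 lost its call without the lane tag (-0.14) and within L6 (-0.13) and L7 (-0.28), and mir-26a-2 within L6 (-0.14). mir-26b gained a call on column sums (-0.094), on column sums without the 2 most abundant hairpins and the family (-0.090) and without the 3 libraries of L8 (-0.10, chosen after seeing the data). At 10 months mir-26a-2 and mir-26b lost theirs by the DESeq2 Wald test (-0.0549 and -0.0644), with DESeq2 size factors (-0.0549 and -0.0644) and within L5 (-0.037 and -0.14), and turned within L7 (0.0027 and 0.021). With the mir-26a rows summed, mir-26a-1 takes the value of the sum, -0.079 at 10 months and -0.19 for age. For age, mir-26a-2 lost its call on column sums without the top hairpins (-0.055), and mir-26b turned to 0.12 and 0.15 on both kinds of column sums, with calls over all hairpins of 168 higher and 71 lower, and 181 and 61. With mir-26a-1 alone in place of the sum, the ratio of mir-26b differed with age by 0.10 in females and -0.082 in males. Beyond the construction of each alternative, the cause was not tested.

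Leaving out 1 library at a time, the mir-26b sex difference at 6 months ran from -0.12 to -0.052 and was called in 16 of 48 fits: without Q140 female 1 or 3, Q20 female 1, 2, 3 or 4, Q20 male 3, Q50 female 2, Q50 male 3, Q92 female 2 or 3, Q92 male 1 or 4, WT of the Q20 line female 3 or male 1, or WT of the Q50 line female 1 (edgeR adjusted p from 0.00426 to 0.0318). The sex difference of the ratio at 6 months ran from 0.039 to 0.060 and passed without Q92 female 2 (permutation adjusted p = 0.0399). A replicate block changed no call of the members (mir-26a-2 with age: -0.20). Taken over all groups, libraries of the same number had a mean r of -0.011 at 6 months and -0.0053 at 10 months. Of these pairs, 45 of 264 and 38 of 221 were over 0.1. Pairs of other numbers had a mean r of 0.0038 and 0.0018. These means mix pairs from different lines, so they cannot show whether the numbers pair mice within a line, which was not tested. Counting error was at most 2.10% for any member, and whether library totals bear on the comparisons was not tested. The split of shared reads limits each mir-26a locus.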
